A study of Drosophila melanogaster with 8 samples.

Results

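The clones of 4 lipid genes, *apolpp*, *Mtp*, *fabp* and *CG9747*, were followed over 8 two-colour cDNA arrays of a like-like test, in which both RNAs on an array came from flies treated alike. Members were all clones whose platform symbol, or the current name of the same Entrez identifier, is one of these 4 genes. Each gene had 1 clone, spotted 2 times, so that the members are 4 of 8448 clones and 8 of 16896 spots. The RNA was total RNA of adult females of the Oregon-R strain of *Drosophila melanogaster*, 4 to 10 days after emergence, reared with 16 h of light, 8 h of darkness and 60% relative humidity. A Potter's tower, a device for spraying insects, delivered 2 mL of 99% ethanol to all flies, which were sampled after 6 h. There were 8 separate pools of about 240 flies, joined in 4 fixed pairs: pools 1 and 2 (pair 1), 3 and 4 (pair 2), 5 and 6 (pair 3), and 7 and 8 (pair 4). Each pair was hybridized on a normal-label array and, with the dyes exchanged, on a reversed-label array, giving 4 arrays in each label group. No unsprayed flies are among these samples, so no value below is an ethanol effect, and the question is how far each lipid clone strayed from 0 when no treatment difference existed.

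Insects move lipid through the hemolymph on lipophorin, a particle made mainly by the fat body and reused for many loads. *apolpp* encodes its scaffold, a precursor that is cut into the apolipophorins, and *Mtp* encodes the microsomal triglyceride transfer protein, which lipidates that scaffold during secretion. Inside cells *fabp* encodes a fatty acid binding protein, a small cytosolic carrier, and *CG9747* encodes a relative of the fatty acid desaturases, which introduce double bonds into fatty acyl chains.

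The values are the authors' deposited log2 ratios of an array's 2 pools, centred on each array and averaged over the 2 spots of a clone. A positive value means more signal for the numerator pool. The labels do not say whether the odd or the even pool was the numerator. Correlations between the label groups (below 0 in 9 of 12 comparisons of different pairs, median -0.157) made it likely that it was the same pool of a pair on both arrays, and all directions below rest on that reading. Dye A is used here for the dye of the numerator pool on the normal-label arrays and dye B for the other. Ratios hold no level, so the 4 genes cannot be ranked by expression and the tissues behind the RNA cannot be checked against their markers. In pooled flies, fewer cells of a type and less RNA per cell cannot be told apart. On single arrays, 0.604% to 7.63% of all clones lay past 2-fold, the highest share being that of the normal-label array of pair 3. In pair 3 the reversed-label array did not resemble its group: its correlations with the remaining 3 arrays of that group were -0.142 to 0.032, while those 3 gave 0.125 to 0.356 among themselves. Over all clones, the 2 spots of a clone correlated at 0.251 to 0.569 on single arrays. The lowest value was that of the same reversed-label array of pair 3, followed by 0.265 on the normal-label array of pair 4.

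The clones of the lipophorin genes *apolpp* and *Mtp* stayed within 2-fold on all 8 arrays, whereas those of *fabp* and *CG9747* did not. The *CG9747* clone passed 2-fold on 4 arrays and the *fabp* clone on 2. Across all clones, 12.8% passed 2-fold on at least 1 of the 8 arrays and 0.343% on at least 4.

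*apolpp*, the lipophorin scaffold, had log2 ratios of 0.32, -0.22, 0.17 and -0.84 on the normal-label arrays of pairs 1 to 4. On the reversed-label arrays the ratios were 0.52, 0.04, -0.17 and -0.22. Pair 1 was thus above 0 and pair 4 below 0 on both of their arrays, pairs 2 and 3 changed sign between theirs, and the label groups overlapped. The value furthest from 0, -0.84 in pair 4, is a 1.79-fold lower signal in the numerator pool. It ranked 53rd from the bottom of all clones on that array, whose ratios were the least spread of the normal-label group.

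The 2 spots of *apolpp* agreed less well than those of most clones. Their gap had a median of 0.47 log2 units over the 8 arrays, against 0.20 for the median clone, and 91.9% of clones had a smaller one. The spots had the same sign on 5 of 8 arrays. On the reversed-label array of pair 4 they stood at 0.11 and -0.56, and on that of pair 3 at -0.51 and 0.17.

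*Mtp*, the transfer protein that loads the scaffold, was the steadiest member. Its log2 ratios were -0.04, 0.07, 0.19 and -0.13 on the normal-label arrays of pairs 1 to 4, and 0.04, -0.02, 0.32 and -0.26 on the reversed-label arrays. The label groups overlapped, and the largest excursion, in pair 3, was 1.24-fold. The root mean square of its 8 ratios was 0.17 log2 units, against 0.30 for the median clone, and 9.21% of clones had a smaller one. Both of its arrays were above 0 in pair 3 and below 0 in pair 4.

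*fabp*, the cytosolic carrier, had log2 ratios of 0.76, 1.21, 1.0 and 0.33 on the normal-label arrays of pairs 1 to 4. On the reversed-label arrays it had 0.01, -0.72, 0.18 and 0.25. All normal-label arrays were above every reversed-label array, but the 2 groups were not mirror images: the normal-label mean was 0.83 ± 0.38 and the reversed-label mean -0.07 ± 0.44 (SD, n = 4 arrays each). Groups that do not overlap were found for 12.8% of all clones. Its spots usually agreed closely, with a median gap of 0.07 log2 units. The exception was the normal-label array of pair 3, where they stood at 0.37 and 1.64, so the 2.0-fold ratio of that array rests on 1 of its 2 spots.

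*CG9747*, the desaturase relative, had log2 ratios of 1.46, 1.24, 1.62 and 0.40 on the normal-label arrays of pairs 1 to 4 and -0.59, -1.21, -0.29 and -0.40 on the reversed-label arrays. Every normal-label array was thus above 0 and every reversed-label array below 0, a pattern found for 2.47% of all clones, and for 4.7% with either group above 0. The mean was 1.18 ± 0.54 with normal label and -0.62 ± 0.41 with reversed label (SD, n = 4 arrays each). Its 2 spots had the same sign on all 8 arrays, but they were not always close. They stood at 0.95 and 1.52 on the normal-label array of pair 2, and at 0.68 and 0.12 on that of pair 4. On the normal-label array of pair 3 the ratio reached 3.08-fold, the furthest from 0 of any member, and it ranked 71st from the top there. The *fabp* and *CG9747* profiles resembled each other, with an uncentred correlation of 0.897 over 8 arrays. The other 5 pairings of members gave -0.113 to 0.258. These coefficients describe values that share arrays, and no p-value is attached to them.

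**Figure D1:**
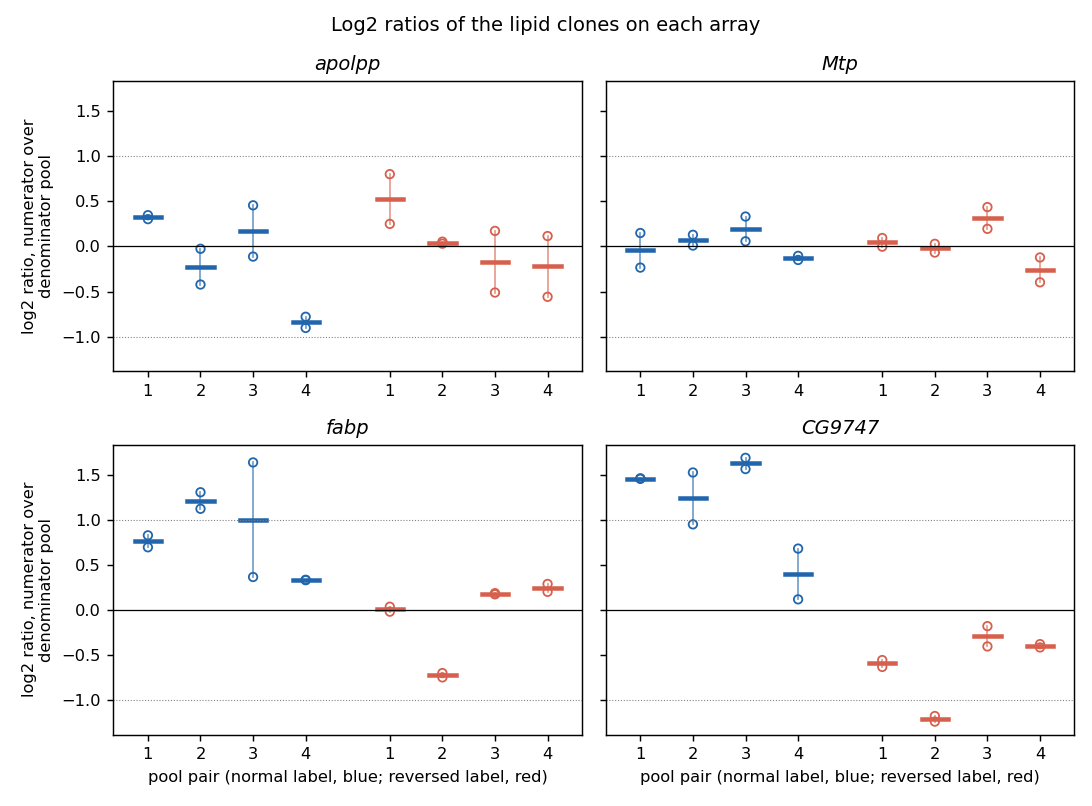
Log2 ratio of numerator over denominator pool (vertical axis) for each lipid clone on the 4 normal-label arrays (blue, left) and the 4 reversed-label arrays (red, right), by pool pair. Open circles are the 2 spots, bars their mean, and dotted lines mark 2-fold. *CG9747* lies above 0 on all normal-label arrays (0.40 to 1.62) and below 0 on all reversed-label arrays (-1.21 to -0.29), and *Mtp* stays between -0.26 and 0.32.

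The dye component, the normal-label ratio of a pair averaged with its reversed-label ratio turned in sign, asks whether a clone's ratio followed the dye when the pools were exchanged. It was tested against 0 over 4 pairs with limma, adjusted over all clones at 5%. Of the 4 members 1 passed, *CG9747*, which was higher in dye A. Over all clones 8.56% passed, 4.25% of all being higher in dye A and 4.31% in dye B. *CG9747* gave 1.02, 1.22, 0.96 and 0.40 in pairs 1 to 4, a mean of 0.90 ± 0.35 (SD, n = 4 pairs), or 1.87-fold (95% interval 0.60 to 1.20, limma adjusted p = 0.0186). It was above 0 in 4 of 4 pairs, and its mean ranked 28th in size of all clones. Sums of squares over the 8 arrays put 76.3% of its deviation from 0 in this component, against a median of 16.6% over all clones.

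*fabp* also leaned to dye A in 4 of 4 pairs but did not pass. Its dye component was 0.38, 0.97, 0.41 and 0.04 in pairs 1 to 4, with a mean of 0.45 ± 0.38 (SD, n = 4 pairs, 95% interval 0.13 to 0.77, limma adjusted p = 0.0855). Intervals are not adjusted for the number of clones, so one can lie on one side of 0 where the adjusted p misses the threshold. The value in pair 2 was the highest and that in pair 4 was near 0. Without pair 2 the mean was 0.28, a drop of more than 1.5 times.

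Neither lipophorin gene passed. *apolpp* had a dye component of -0.09 ± 0.20 (SD, n = 4 pairs, 95% interval -0.30 to 0.11, limma adjusted p = 0.544), and -0.18 to -0.021 with 1 pair left out. *Mtp* had 0.0014 ± 0.063 (SD, n = 4 pairs, 95% interval -0.15 to 0.15, limma adjusted p = 0.99), so the interval holds no dye difference of more than 1.11-fold. The sign of the *Mtp* mean turned after scaling the arrays to 1 spread (-0.019), after quantile normalization (-0.016) and without pair 2 or pair 4 (-0.013 and -0.020).

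The *CG9747* call rested on the set of pairs. It ended without pair 1, 2 or 3 (limma adjusted p = 0.0967, 0.0817 and 0.0537) and held without pair 4 (0.00794), while the mean stayed between 0.79 and 1.07. Over all clones, 723 dye calls fell to 3, 4 and 21 without pairs 1, 2 and 3, and to 359 without pair 4. Losing a call with 1 pair left out was thus common, which holds also for the listed clones below. For *CG9747*, leaving out only the dissimilar array of pair 3 gave 0.99 (limma adjusted p = 0.025, with the other 7 arrays as independent). All 8 arrays taken as independent gave 0.90 (adjusted p = 0.0556). If the direction were read the other way, the dye and numerator-pool components would change places, and the *CG9747* dye component would be 0.28 (adjusted p = 0.821).

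The numerator-pool component, which averages both arrays of a pair with no change of sign, is the part that stays with the pool. Odd and even pool numbers carry no treatment. None of the 4 members passed, as did none of all clones (0% at 5% after adjustment, 5.34% at an unadjusted p under 0.05). *fabp* came nearest among the members, at 0.39, 0.25, 0.59 and 0.29 in pairs 1 to 4. Its mean was 0.38 ± 0.15 (SD, n = 4 pairs), or 1.30-fold (95% interval 0.16 to 0.59, limma adjusted p = 0.821). A numerator-pool value above 0 in all pairs was found for 7.54% of all clones, and one of the same sign in all pairs for 14.5%.

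For *fabp* the dye and the numerator-pool components were of like size, with 42.8% and 30.2% of its sum of squares. They add up to the normal-label mean of 0.83 and nearly cancel in the reversed-label mean of -0.07. *CG9747* was also above 0 in 4 of 4 pairs, at 0.43, 0.02, 0.67 and 0.0018, with a mean of 0.28 ± 0.33 (SD, n = 4 pairs, 95% interval -0.02 to 0.58, limma adjusted p = 0.821). It was 0.17 with arrays scaled to 1 spread and 0.15 without pair 3. In each pair both genes were further from 0 with normal label than with reversed label, *CG9747* by little in pairs 2 and 4.

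*apolpp* and *Mtp* had numerator-pool means of -0.05 ± 0.39 and 0.02 ± 0.18 (SD, n = 4 pairs each), with 95% intervals of -0.39 to 0.29 and -0.21 to 0.25 and limma adjusted p = 0.956 and 0.969. The mean of *apolpp* turned to 0.11 without pair 4, and that of *Mtp* to -0.056 without pair 3.

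**Figure D2:**
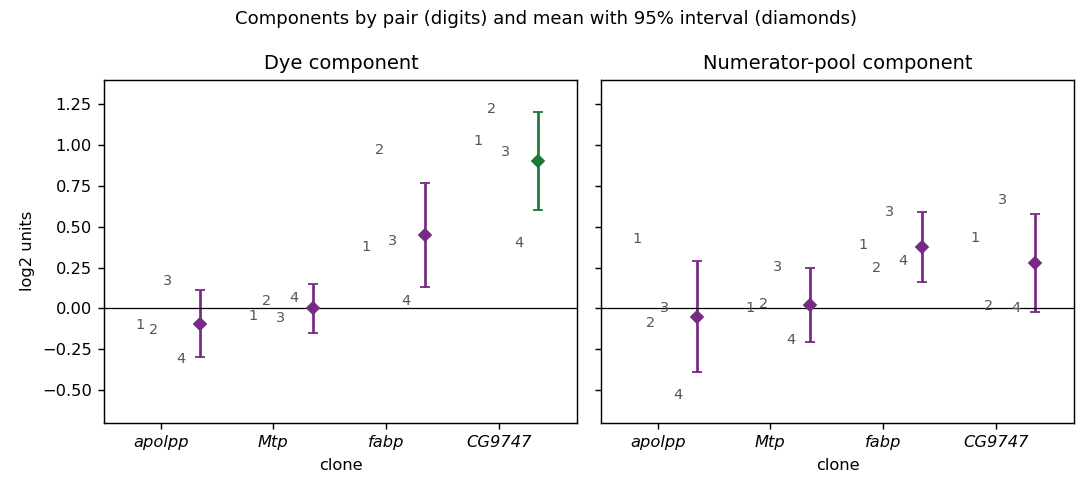
Dye component (left) and numerator-pool component (right) of each lipid clone, in log2 units on the vertical axis. Digits are the values of pairs 1 to 4, and diamonds with bars are means with 95% intervals, green where the adjusted p was under 5%. The green diamond is *CG9747* at 0.90, and all 4 digits of *fabp* lie above 0 in both panels.

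Whether the pools joined in a pair differed was asked with 1 dye term for all pairs, against what then remained between the arrays of a pair. That remainder is technical, so these tests speak of these pools only. No member passed the F-test over all pairs. Of all clones 0% passed, and 14.9% had an unadjusted p under 0.05. With 3 residual degrees of freedom, a p that misses the threshold does not show that pools were alike. *apolpp* was nearest, with F = 3.8 (limma adjusted p = 0.346). *CG9747*, *fabp* and *Mtp* followed with adjusted p = 0.459, 0.493 and 0.58.

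As with *Mtp* (88.0% of its sum of squares), the deviation of *apolpp* lay mostly between pairs of pools. *apolpp* had 73.9% of its sum of squares there, against a median of 34.5% over all clones. Its coefficients were 0.42, -0.09, 0.0007 and -0.53 in pairs 1 to 4, and that of pair 3 was 0.35 when its dissimilar reversed-label array was left out (limma adjusted p = 0.403). The standard error was 0.18 in each pair. For scale, the median gap between the 2 *apolpp* spots was 0.47 log2 units. On the reversed-label array of pair 4 the spots differed in sign (0.11 and -0.56). Pair 4 was furthest from 0, a 1.45-fold lower signal in the numerator pool (95% interval -0.94 to -0.12, limma adjusted p = 0.865). By size, whatever the sign, 98.2% of clones had a smaller coefficient in that pair. In pair 1 the numerator pool was 1.34-fold higher (95% interval 0.012 to 0.84, limma adjusted p = 0.757). No clone passed in pairs 1, 2 or 4 (0% each). An unadjusted p under 0.05 was found for 6.5%, 7.4%, 23.8% and 5.36% of all clones in pairs 1 to 4, and among the members for *apolpp* in pairs 1 and 4 and *CG9747* in pair 3.

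*Mtp*, *fabp* and *CG9747* had their largest coefficients in pair 3, the pair in which 3.2% of all clones passed. *CG9747* stood at 0.67 there (95% interval 0.066 to 1.27, limma adjusted p = 0.169), *fabp* at 0.59 (95% interval -0.050 to 1.23, adjusted p = 0.244) and *Mtp* at 0.25 (95% interval -0.047 to 0.56, adjusted p = 0.282). None passed, and with arrays scaled to 1 spread *CG9747* was at 0.34 there. By size, 93.9% of clones had a smaller coefficient than *CG9747* in pair 3, 91.0% than *fabp* and 57.9% than *Mtp*. These shares were higher in pair 1 for *CG9747* (94.3%) and *fabp* (92.5%), and in pair 4 for *Mtp* (69.3%). The *fabp* coefficient includes the normal-label array of pair 3, on which its spots stood at 0.37 and 1.64. The upper bounds in pair 3 allow a pool difference of up to 2.41-fold for *CG9747* and 2.35-fold for *fabp*, and 1.47-fold for *Mtp*. The robust spread of all ratios on the normal-label array of pair 3 was 0.49 log2 units, against 0.21 to 0.33 on the other 7 arrays, and its part in these values was not tested. For *Mtp*, 88.0% of the small sum of squares lay between pairs.

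**Figure D3:**
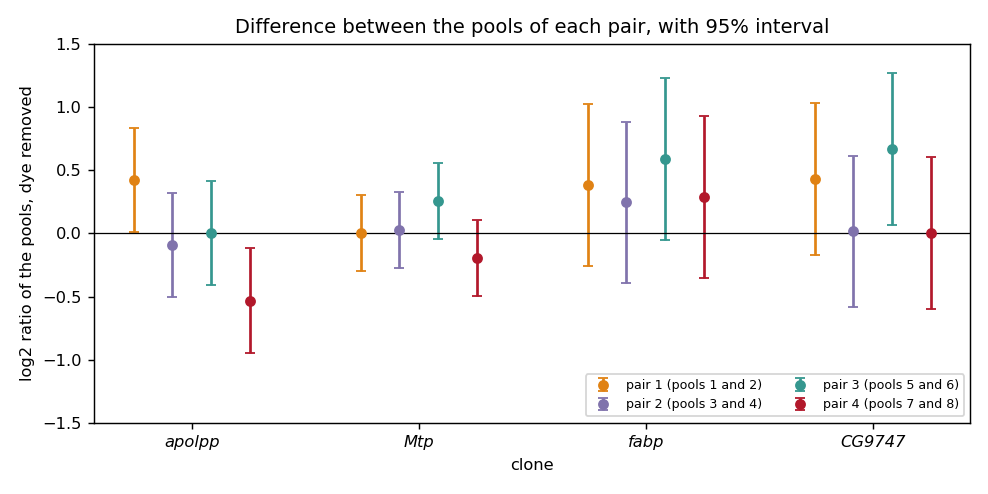
Log2 ratio of numerator over denominator pool with the dye term removed (vertical axis) for each lipid clone in pairs 1 to 4. Points are coefficients and bars 95% intervals. *apolpp* runs from -0.53 in pair 4 to 0.42 in pair 1, and the other 3 clones are highest in pair 3.

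Other genes of lipid metabolism were taken from lists of lipoprotein receptors, fatty acid carriers, desaturases and elongases, fatty acid synthesis and activation, oxidation, and storage. Of these, 24 clones of 23 genes carried a single symbol on the array, and none belonged to the carrier or oxidation lists. In the dye component 2 of 24 passed (8.33%, against 8.56% of all clones), 1 in each direction. The median dye component was 0.0074 for the 24 clones and 0.0044 for all clones, and the median size 0.13 and 0.12. None passed in the numerator-pool component or the F-test. In pair 3, 2 of 24 passed (3.2% of all clones did), and each of these calls ended under most alternatives, as given below for *ATPCL* and *Jabba*. The dye components of the 24 clones ran from -0.52 to 0.33, so none was as far from 0 as that of *CG9747*.

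The receptors that bind lipophorin, *LpR1* and *LpR2*, gave dye components of -0.14 ± 0.10 and 0.11 ± 0.056 (SD, n = 4 pairs each, limma adjusted p = 0.232 and 0.329). Neither passed, and their signs differed. Of the 5 desaturation and elongation clones, none passed. The smallest p-values belonged to *Sc2* (-0.22 ± 0.043), *Cyt-b5-r* (0.24 ± 0.20) and *CG31522*, an elongase relative (-0.18 ± 0.19, SD, n = 4 pairs each), with limma adjusted p = 0.0724, 0.141 and 0.24.

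Of the 5 clones for fatty acid synthesis, activation and uptake, none passed in the dye component. *ATPCL*, the ATP citrate lyase that makes acetyl-CoA for fatty acid synthesis, had 2 clones that disagreed. One gave -0.26 ± 0.092 (limma adjusted p = 0.0559) and passed as lower in the numerator pool of pair 3 (-0.66, SE 0.14, adjusted p = 0.0497, held under 1 of 9 alternatives). The other gave 0.035 ± 0.13 (SD, n = 4 pairs each) and 0.13 in pair 3 (adjusted p = 0.626). *pdgy*, an acyl-CoA synthetase gene, had a log2 ratio of 4.55 on the reversed-label array of pair 1, where its spots read 8.43 and 0.67. Its values on the other 7 arrays lay between -0.41 and 0.33, and its dye component of -0.52 ± 1.07 (SD, n = 4 pairs, limma adjusted p = 0.38) became 0.013 without pair 1.

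Among 12 clones for lipid storage and lipolysis, 2 passed in the dye component. *Lpin*, encoding the phosphatidate phosphatase lipin, was higher in dye B, at -0.56, -0.50, -0.82 and -0.46 on the normal-label arrays of pairs 1 to 4 and 0.15, 0.44, -0.18 and 0.50 on the reversed-label arrays. Only the reversed-label array of pair 3 departed from opposite signs. The mean was -0.41 ± 0.080 (SD, n = 4 pairs, limma adjusted p = 0.0204), and the call ended with any 1 pair left out (adjusted p = 0.0513 to 0.0967) and held under 2 of 11 alternatives. *Jabba*, encoding a lipid droplet protein, was higher in dye A, at 0.33 ± 0.083 (SD, n = 4 pairs, limma adjusted p = 0.0304, and 0.0776 to 0.139 with 1 pair left out), a call held under 1 of 11 alternatives. It also passed as higher in the numerator pool of pair 3, with ratios of 1.45 (normal label) and 0.81 (reversed label) and a coefficient of 1.13 (SE 0.13, adjusted p = 0.0233), held under 2 of 9 alternatives. *Lsd-2*, a perilipin, gave 0.26 ± 0.16 (SD, n = 4 pairs, adjusted p = 0.0944).

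Markers of the tissues behind these transcripts were few. For the fat body 1 clone carried a listed symbol, *Fbp2* (dye component 0.19 ± 0.18, SD, n = 4 pairs, limma adjusted p = 0.207), with pool coefficients of -0.0054, -0.068, 0.37 and 0.012 in pairs 1 to 4. The gut list had 2 clones, *LManII* (0.021) and the lipase gene *mag* (-0.11), which the storage list also holds, and neither passed. Of 5 ovary clones, 2 passed towards dye B (4.31% of all clones did), *yl*, the yolk protein receptor (-0.42), and *mael* (-0.41), with limma adjusted p = 0.0272 and 0.0189. These calls held under 3 and 5 of 11 alternatives, and both ended without pair 1, 2 or 3. *zuc* (-0.20) and both *exu* clones (0.16 and 0.051) did not pass. A male reproductive list was also read, although the RNA is described as that of females. Whether any male RNA was present was not tested. Of the 4 clones of that list none passed in the dye component, with *ocn* at -0.38, *betaTub85D* at 0.22 and *dj* at -0.052. The *ocn* clone passed as lower in the numerator pool of pair 3 (-1.36, adjusted p = 0.0316, held under 3 of 9 alternatives). No listed oenocyte clone was named. The part of tissue content in the members' values was not tested.

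**Figure D4:**
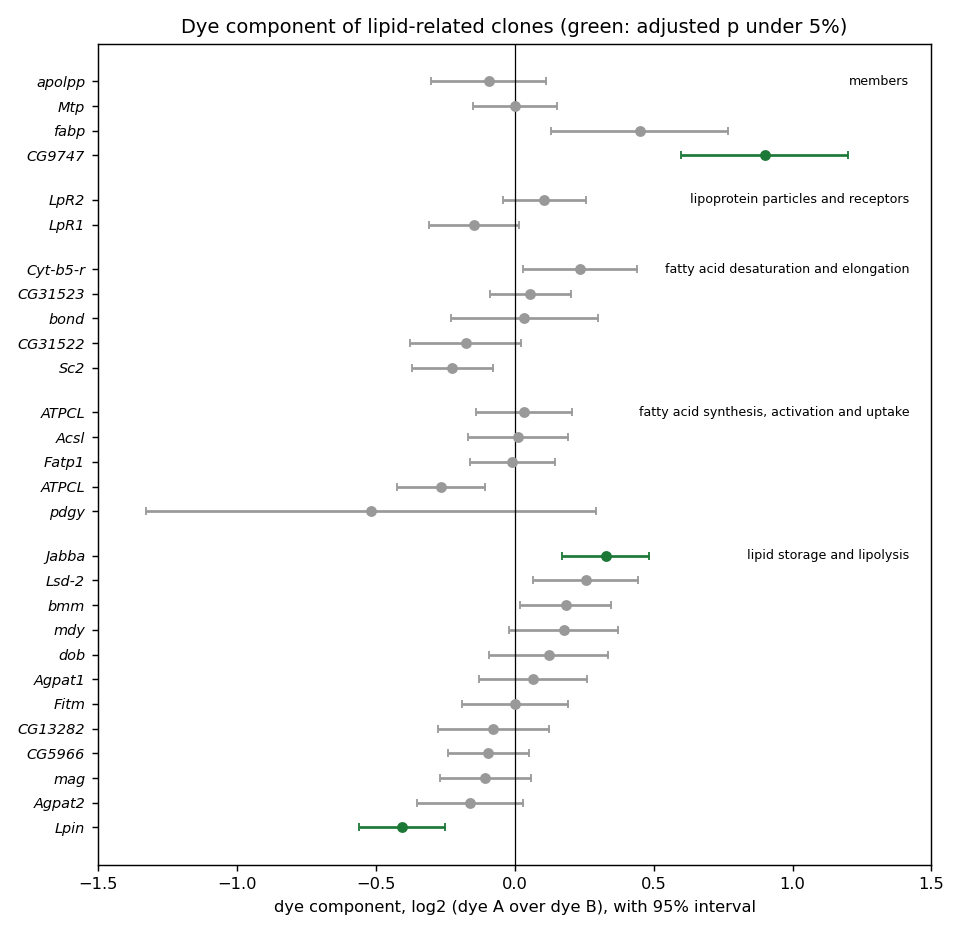
Dye component in log2 units, dye A over dye B (horizontal axis), with 95% intervals for the 4 lipid clones at the top and the 24 other listed lipid clones below, grouped by list. Green marks an adjusted p under 5%. *CG9747* at 0.90 lies furthest right, *Jabba* (0.33) and *Lpin* (-0.41) are the other green points, and *pdgy* has the widest interval.

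The clones of other genes with the most similar values were sought by uncentred correlation over the 8 arrays, which does not change when an array is turned in sign. Among 2832 clones with a single symbol, 50 (1.77%) exceeded 0.9 with *CG9747*, 28 (0.989%) with *fabp*, 4 (0.141%) with *Mtp* and 0 with *apolpp*. Nearest to *CG9747* were *CG7156* (0.987), the tropomyosin gene *Tm2* (0.983) and *CG9257* (0.981). *Tm2* reached 2.09 with normal label and -1.81 with reversed label, a wider span than that of *CG9747*. Nearest to *fabp* were *Rpt4R*, a relative of a proteasome subunit gene (0.973), the mitochondrial fusion gene *Opa1* (0.97) and *MSBP* (0.969). *S6kII*, a ribosomal S6 kinase gene (0.938), *CdGAPr* (0.928) and *CG6398* (0.901) were nearest to *Mtp*. *snu* (0.887), *Scamp* (0.884) and *pico* (0.86) were nearest to *apolpp*. All these values share the same 8 arrays, and no p-value is attached to them.

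**Figure D5:**
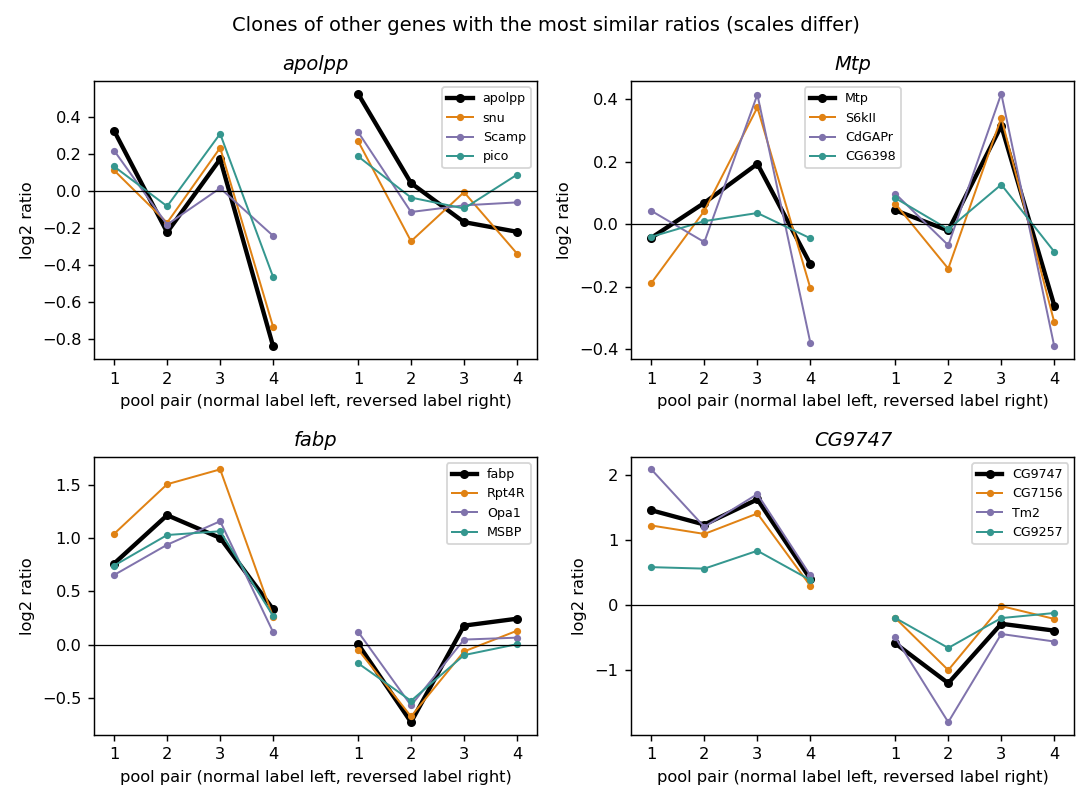
Log2 ratio (vertical axes, which differ between panels) by pool pair on normal-label arrays (left) and reversed-label arrays (right) for each lipid clone (black) and the 3 clones of other genes with the highest uncentred correlation (colours). The *CG9747* and *fabp* panels hold correlations of 0.969 to 0.987, and the *apolpp* panel 0.86 to 0.887.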

How the data were processed

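The authors' deposited values were log2 ratios, 1 per spot; the base was inferred from their range (largest size 17.5), and scanner settings, background correction and normalization were, in the sources used here, not given. Signal levels and spots near background could therefore not be filtered. Each array's median was subtracted and neighbouring spots, which held identical annotation for all 2909 annotated clones, were averaged. GEO's platform annotation gave 1 symbol for 2833 clones, several for 76 and none for 5539. All 2833 were found by Entrez identifier in the RefSeq gene table.

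Tests used limma 3.58.1 (lmFit, eBayes) in R 4.3.3, Benjamini-Hochberg adjusted over 8448 clones and tried on simulated data. The pair was the replicate because both its arrays carry the same RNAs. Deviations from the label-group means correlated at 0.092, 0.185, 0.336 and 0.099 within pairs 1 to 4. Arrays of different pairs gave -0.272 to 0.226, so only pair 3 exceeded all of these. Pools were separate, and residuals of the pair fit (3 degrees of freedom) are technical. The number of arrays limits precision.

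Members and lists were chosen with earlier results of these data known. Named were all members, the 3 nearest clones to each, list clones with the 3 smallest dye p and list calls. Alternatives were scaling, quantile normalization, single spots, the other reading of direction, left-out pairs or arrays, robust eBayes and no pair block.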

Additional observations from a re-analysis of the deposited data

Results flagged for a closer look

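*CG9747* differed between the label groups by the limma test of the dye component (0.90, dye A over dye B in log2 units), as did the listed clones *Lpin* (-0.41), *Jabba* (0.33), *yl* (-0.42) and *mael* (-0.41). A value isolated from the remaining 3 was found in 3 of 56 groups of 4 values (the label groups of members and listed clones, and the members' dye and numerator-pool components by pair), where chance alone would give about 1 in 20. These were *pdgy* on the reversed-label array of pair 1 (4.55), *Jabba* on that of pair 3 (0.81) and *LpR1* on that of pair 4 (-0.16). None of the 16 groups of the 4 lipid members held such a value.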

How the results depend on the processing

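One member passed in the dye component. None passed with single spots, under the other reading of the direction, or with no replicate block (0 each). In that order, the limma adjusted p of *CG9747* was 0.0576, 0.821 and 0.0556. With single spots a clone passed only if both its spots did, and the p given is the larger of the 2. With 1 pair left out, 0 to 1 passed. Under the other reading 1 member passed in the numerator-pool component, *CG9747*, since that reading exchanges both components. In the F-test and the pair coefficients 0 members passed under every alternative run. Over all clones, the 723 dye calls became 286 with scaled arrays and 258 with quantile normalization. With single spots, 95 of 16896 spots passed, a count of spots that cannot be set against the 723 clones. The 723 calls became 0 under the other reading or without the block, and 3, 4, 21 and 359 without pairs 1 to 4. When pair 3 lacked its reversed-label array, 501 clones passed, but that fit took all remaining arrays as independent. Its like comparison is the fit without the block, with 0 calls, so the 501 cannot be set against the 723. The 270 calls of pair 3 became 0 with scaled arrays, quantile normalization, single spots or the other reading, 2, 3 and 157 without pairs 1, 2 and 4, and 87 without that array.

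Some signs turned. With scaled arrays and quantile normalization these were the dye component of *Mtp* (-0.019 and -0.016) and of *LManII* (-0.034 and -0.032) and the pair 3 coefficient of *apolpp* (-0.045 and -0.052). Under the other reading they were the pair 1 coefficients of *apolpp* (-0.10) and *Mtp* (-0.044), the pair 3 and 4 coefficients of *Mtp* (-0.061 and 0.066), and the dye components of *Cyt-b5-r* (-0.016), an *ATPCL* clone (-0.021), *pdgy* (0.55), *mag* (0.10) and *mael* (0.033, a called value of -0.41 under the reading used). Without that array the numerator-pool mean of *Mtp* was -0.021. With 1 pair left out, dye components ranged over -0.020 to 0.022 for *Mtp*, -0.73 to 0.013 for *pdgy*, -0.00042 to 0.090 for that *ATPCL* clone and -0.019 to 0.064 for *LManII*, and numerator-pool means over -0.21 to 0.11 for *apolpp* and -0.056 to 0.093 for *Mtp*. The cause of these changes was not tested. Settings for listed clones other than the members were added after the data were seen.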
